A study of Arabidopsis thaliana with 27 samples.

Results

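The dehydrin family of Arabidopsis thaliana was followed through seed filling in 3 lines that make different seed oils. The family was taken as 10 genes, found in the count files by locus identifier among 33602 counted genes: RAB18 (AT5G66400), LTI30 (AT3G50970), XERO1 (AT3G50980), COR47 (AT1G20440), ERD10 (AT1G20450), ERD14 (AT1G76180), HIRD11 (AT1G54410) and the 3 loci without a symbol here, AT2G21490, AT4G38410 and AT4G39130. All 10 had a row in each of the 27 libraries, and 9 passed the filter on low counts; AT4G39130 did not. The 4 genes RAB18, LTI30, XERO1 and AT2G21490 rose between 7-8 and 11-12 days after flowering in each line, and COR47, ERD10 and AT4G38410 fell. ERD14 fell in fae1 and PDAT, and in CL37 by a call at the threshold that most alternatives removed. LTI30 was the member that differed between lines at 11-12 days, being higher in CL37 and PDAT than in fae1. The PDAT call was lost in 3 of the 27 fits that left out 1 library. In the authors' deposited pooled values LTI30 was lower in PDAT than in fae1 at that age, at 238 and 311.

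Dehydrins are hydrophilic proteins of the late embryogenesis abundant (LEA) class, marked by a lysine-rich stretch called the K-segment. They are known for accumulating in seeds as these dry and in leaves during cold or drought, where they bind membranes, proteins and metal ions. Their genes are classic targets of abscisic acid, acting through bZIP factors on the ABRE element, and of the CBF and DREB2 factors, which bind the DRE element; seed factors such as ABI3 and FUS3 bind the RY element.

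The series measured polyadenylated RNA of developing seeds by Illumina sequencing, and the question it addresses is how seeds that make hydroxy fatty acids differ from their parent. All 9 groups carry the fae1 mutation, which removes the elongase of very long chain fatty acids, so fae1 is the control and no wild type was compared. CL37 is 1 transgenic line in fae1 that expresses the castor bean hydroxylase RcFAH12 in seeds, and PDAT is CL37 with the castor bean acyltransferase RcPDAT1a added, also in seeds. Seeds of each line were taken at 7-8, 9-10 and 11-12 days after flowering in 3 biological replicates (lettered A to C), after being removed from frozen siliques of plants under constant light. A line effect cannot be told apart from an effect of the single transgenic line used, and the castor transgenes themselves were not analysed here.

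The libraries held 4126510 to 22403287 counts in genes, and the dehydrins together took 3052 to 44457 counts. In fae1 at 7-8 days, library A was unlike its replicates: the summed storage protein and oil body markers reached 301280 CPM (TMM-scaled counts relative to library size) there and 15655 and 38203 in its replicates, and AT2G21490 reached 699.5 CPM against 50.5 and 124. The fae1 A library of 9-10 days held 69.4 CPM of HIRD11 against 31.4 and 30.1 in its replicates. Its summed endosperm markers were at 723 CPM, against 1820 and 2425. The fae1 A library of 11-12 days held 295 CPM of RAB18 against 14.4 and 29.4 in its replicates. In the authors' deposited table of pooled FPKM, LTI30 stood at 311 in fae1 and 741 in CL37 at 11-12 days. The 3 fae1 libraries held 14.5 to 50.3 CPM per kilobase of exon. At that age the table gave RAB18 at 294 in fae1 and 548 in CL37, ERD14 at 78.6 and 84.1, and HIRD11 at 54.7 and 59.0. In CPM per kilobase the means were 128 and 619.5 for RAB18, 47.0 and 84.4 for ERD14 and 39.1 and 59.9 for HIRD11. CL37 and fae1 thus lay closer together in the deposited table. For LTI30 at 11-12 days that table gave 238 in PDAT, below the 311 of fae1. The counts put PDAT above fae1, with means of 203 and 31.4 CPM per kilobase. The mismatch was not tested, and the levels given here rest on the counts. An alternative left out the C libraries of both lines at 11-12 days. Where named, values without the fae1 A libraries are given beside the main ones. The storage markers, which define filling embryos, summed to 15655 CPM or more in every library. IND, which defines the valve margin of the silique wall, was at 0.206 CPM or less. All 10 listed silique wall markers together summed to 91.1 to 153 CPM per library, so IND does not stand for that list.

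The short sequences that the cold, abscisic acid and seed factors are known to bind were searched in the 500 bases before each start codon, and a selection from members that rose and members that fell is shown. The letters searched were ACGTG for the ABRE core, CCGAC for the DRE core and CATGCA for the RY core, each on both strands. Coordinates and bases are from the RefSeq annotation of the TAIR10.1 assembly, each run is written 5′ to 3′ along the gene's own strand, and capitals mark the core as it reads on that strand.
RAB18 ABRE, chr5:26519593-26519622, minus strand: caacgacgatgtACGTGtgtatgaaaatca
RAB18 ABRE, chr5:26519541-26519570, minus strand: aggaggagcattACGTGtcctgttagctac
RAB18 ABRE, chr5:26519448-26519477, minus strand: gattgatatgaaCACGTacttggtatcgac
RAB18 ABRE, chr5:26519363-26519392, minus strand: tttaaatacgaaCACGTatggcgaaacacc
LTI30 DRE, chr3:18940530-18940559, plus strand: agttaaaattacGTCGGtcgctaaccacta
LTI30 DRE, chr3:18940553-18940582, plus strand: accactactacaCCGACgtcttacttgcca
LTI30 DRE, chr3:18940622-18940651, plus strand: tacttttacgatGTCGGccaacacgtattg
LTI30 ABRE, chr3:18940631-18940660, plus strand: gatgtcggccaaCACGTattgagtaaaata
AT2G21490 RY, chr2:9207158-9207187, minus strand: acgtatcatatcCATGCAgattaacatgtc
AT2G21490 RY, chr2:9207131-9207160, minus strand: gtctaatatataTGCATGcctacttgaatc
COR47 DRE, chr1:7085915-7085944, minus strand: gatattcatctaCCGACttcaagaaataag
ERD10 DRE, chr1:7089368-7089397, minus strand: gatattcatccaCCGACcgaccgacgtaaa

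RAB18 held 4 ABRE cores in its window, a number reached by 2.43% of the windows of 27443 genes, and 1 DRE core. LTI30 held 3 DRE cores, a number reached by 0.838% of windows, and 1 ABRE core lying just downstream of the third of them. AT2G21490 held 2 RY cores, a number reached by 3.32% of windows, with 2 DRE cores and 1 ABRE core. Among the genes that fell, COR47 held 1 DRE core and 1 ABRE core, and ERD10 held 3 DRE cores that overlap in the run shown, 1 RY core and no ABRE core. The number of DRE cores in ERD10 is the same as in LTI30, reached by 0.838% of windows. The ERD14 window held 2 ABRE cores, that of AT4G38410 2 DRE cores and 1 ABRE core, and that of HIRD11 1 ABRE core. At least 2 ABRE cores were held by 14.6% of windows and at least 2 DRE cores by 4.42%. XERO1 held 3 ABRE cores, of which 2 are both readings of 1 palindrome, and AT4G39130 held 3 ABRE and 3 RY cores, 2 of each overlapping. At least 3 ABRE cores were held by 5.45% of windows and at least 3 RY cores by 0.725%. Over all genes 34.9% of windows held an ABRE core, 23.4% a DRE core and 14.3% an RY core. Cores were found both in members that rose and in members that fell. The windows end at the start codon, so each overlaps its annotated gene. The COR47 window lies wholly inside that gene, and the ERD10 window almost wholly. A match is a description of letters and not a binding site.

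LTI30 and XERO1 are neighbours on the plus strand of chromosome 3, 370 bases apart in the authors' loci, and COR47 and ERD10 are neighbours on the minus strand of chromosome 1, 2230 bases apart. The coding sequences of COR47 and ERD10 were identical at 82.3% of aligned bases with a longest shared run of 32 bases. Reads matching both genes equally may have been left out of both as non-unique, so the separate values of COR47 and ERD10 are uncertain. No other pair shared an identical run longer than 26 bases. On the RefSeq TAIR10.1 annotation RAB18 lies at chr5:26518277-26519447, LTI30 at chr3:18940643-18941611, XERO1 at chr3:18941925-18942940 and AT2G21490 at chr2:9205990-9207125. COR47 lies at chr1:7084409-7086873, ERD10 at chr1:7087903-7089606, ERD14 at chr1:28586663-28587931 and HIRD11 at chr1:20309473-20310850. AT4G38410 lies at chr4:17980678-17981766 and AT4G39130 at chr4:18228118-18228854. The proteins range from 98 residues in HIRD11 to 265 in COR47.

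Per kilobase of exon, the scale on which genes can be compared with each other, AT2G21490 had the highest mean of the dehydrins in 8 of 9 groups. ERD14 led in PDAT at 7-8 days. In fae1 at 7-8 days the lead of AT2G21490 came from library A. There AT2G21490 stood at 837, 60.4 and 148 CPM per kilobase in A, B and C, and ERD14 at 67.7, 112 and 178. At 7-8 days in CL37 the mean level was 145 ± 49.1 CPM per kilobase (SD, n = 3) for AT2G21490 and 135 ± 25.015 for ERD14, which did not differ beyond their spread. These were followed by HIRD11 at 75.0 ± 33.9, ERD10 at 38.1 ± 6.97 and AT4G38410 at 26.1 ± 2.77, while LTI30 stood at 1.96 ± 0.279 and RAB18 at 1.22 ± 0.352. By 11-12 days the order in CL37 had changed to AT2G21490 at 2051 ± 201, LTI30 at 872 ± 330 and RAB18 at 619.5 ± 175, of which the last 2 overlapped, and ERD14 at 84.4 ± 12.3. In fae1 at 11-12 days AT2G21490 alone made up 85.2% of the family's summed level per kilobase, in PDAT 75.6% and in CL37 54.7%. LTI30 made up 1.53% of that sum in fae1, 10.6% in PDAT and 23.3% in CL37. Summed over the 10 genes, the family stood at 435 ± 7.62 CPM at 7-8 days and 3133 ± 483 at 11-12 days in CL37 (SD, n = 3), against 561 ± 301 and 1729.7 ± 327 in fae1 and 525 ± 52.1 and 1622 ± 390.07 in PDAT, sums that were not tested. At 7-8 days the fae1 A library summed to 896 CPM, against 316 and 471 in its replicates. In bulk seeds, fewer cells of a type and less RNA per cell cannot be told apart.

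**Figure D1:**
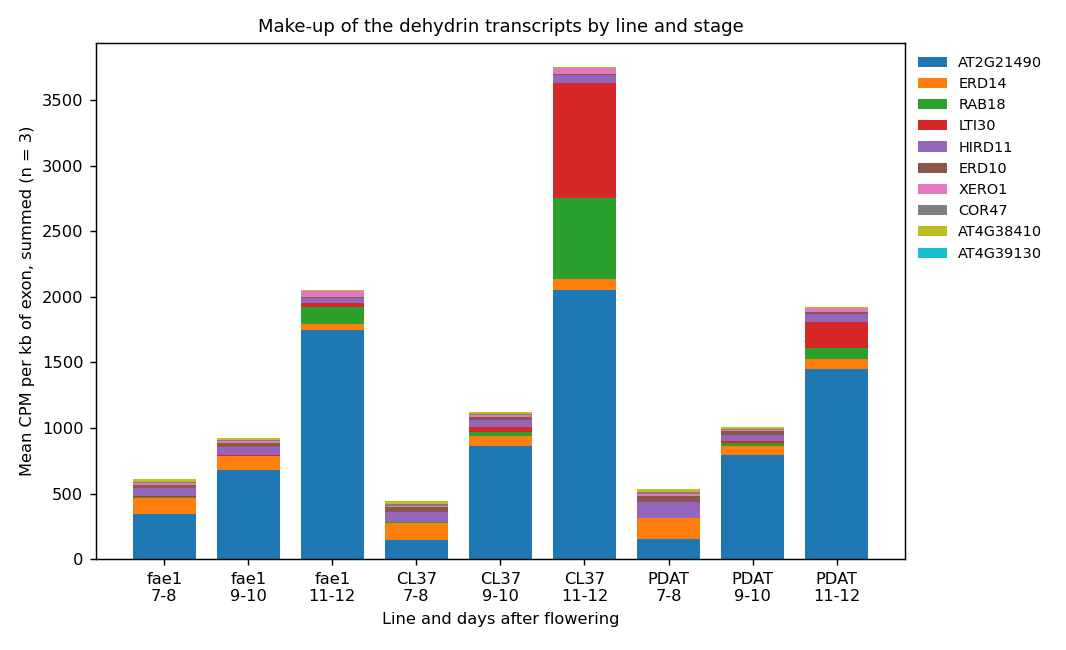
Summed mean levels of the 10 dehydrin genes in CPM per kilobase of exon (vertical axis, linear) in each line and stage (n = 3 libraries per bar), with 1 colour per gene. AT2G21490 fills most of each bar at 11-12 days, and LTI30 and RAB18 add 872 and 619.5 in CL37.

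Between 7-8 and 11-12 days, the 9 dehydrin genes tested split into 4 that rose in every line and 4, 4 and 5 that fell in fae1, in CL37 and in PDAT (edgeR quasi-likelihood test, adjusted p below 0.05 over 18897 genes). Of all genes tested, 50.5% were called in fae1, 58.1% in CL37 and 53.9% in PDAT, so change with age was common. The median log2 change of the 9 members was -0.56 in fae1, -0.33 in CL37 and -1.04 in PDAT, against 0.00, 0.01 and 0.01 over all genes tested. In each line this median is the value of HIRD11, the middle member, and not a shift shared by the family. RAB18, LTI30, XERO1 and AT2G21490 were the 4 that rose in each of the lines.

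RAB18 is a glycine-rich dehydrin induced by abscisic acid and drought. At 7-8 days it stood at 23.7, 2.80 and 1.54 CPM in replicates A, B and C of fae1, at 1.09, 0.766 and 1.39 in CL37, and at 0.480, 4.27 and 1.57 in PDAT. At 11-12 days it stood at 295, 14.4 and 29.4 CPM in fae1, at 562, 694 and 387 in CL37, and at 135, 54.0 and 34.0 in PDAT. The 2 ages did not overlap in CL37 or PDAT, and overlapped in fae1, where the A library was the high one at both ages. The log2 rise was 8.98 ± 1.39 in CL37 (SE, adjusted p = 1.36e-05) and 5.10 ± 1.17 in PDAT (adjusted p = 0.000991). In fae1 it was 3.59 ± 1.06 (adjusted p = 0.00852), but 1.23 (adjusted p = 0.288) without the A library of 11-12 days and 5.69 (adjusted p = 0.00182) without the A library of 7-8 days.

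LTI30, also called XERO2, is a basic dehydrin of cold-treated leaves that binds membranes. At 7-8 days it stood at 7.94, 0.725 and 0.720 CPM in fae1, at 1.53, 1.30 and 1.74 in CL37, and at 1.28, 1.04 and 0.962 in PDAT. At 9-10 days it stood at 4.75, 3.27 and 7.76 CPM in fae1, at 24.5, 47.9 and 9.42 in CL37, and at 15.6, 12.3 and 8.83 in PDAT. At 11-12 days it reached 39.2, 11.3 and 22.8 CPM in fae1, 975, 531 and 529.6 in CL37, and 269, 94.5 and 111 in PDAT. Every library of 11-12 days was above every library of 7-8 days in its line, and at 11-12 days the 3 lines did not overlap. The log2 rise was 2.96 ± 0.69 in fae1 (adjusted p = 0.00177), 8.80 ± 0.84 in CL37 (adjusted p = 3.67e-08) and 7.14 ± 0.80 in PDAT (adjusted p = 5.46e-07). Without the fae1 A library of 7-8 days the rise in fae1 was 5.06 (adjusted p = 4.58e-05).

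AT2G21490 is annotated as a dehydrin LEA gene. It stood at 699.5, 50.5 and 124 CPM at 7-8 days and at 1440.2, 1212 and 1727 CPM at 11-12 days in fae1. In CL37 it went from 86.8, 109.8 and 167 to 1903, 1661 and 1581 CPM, and in PDAT from 63.6, 162 and 153 to 1459.9, 931 and 1249 CPM. The ages did not overlap in any line, and the levels at 11-12 days overlapped between fae1 and each transgenic line. Its log2 rise was 2.32 ± 0.59 in fae1 (adjusted p = 0.00326), 3.82 ± 0.63 in CL37 (adjusted p = 2.92e-05) and 3.27 ± 0.62 in PDAT (adjusted p = 0.000159). Without the fae1 A library of 7-8 days the rise in fae1 was 4.06 (adjusted p = 3.20e-07).

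XERO1, a small basic dehydrin next to LTI30, moved less. Its mean level went from 10.1 ± 2.03 to 25.3 ± 12.0 CPM in fae1 (SD, n = 3), from 7.04 ± 1.95 to 30.2 ± 8.64 in CL37 and from 5.31 ± 0.505 to 16.5 ± 8.85 in PDAT. The log2 rise was 1.32 ± 0.35 in fae1 (adjusted p = 0.00389), 2.08 ± 0.35 in CL37 (adjusted p = 3.43e-05) and 1.62 ± 0.36 in PDAT (adjusted p = 0.000633, and 0.0677 when the fit took the share of non-unique alignments as covariate). The next gene downstream, AT3G50990, a seed coat peroxidase that lies 269 bases further, fell by 5.47 ± 1.15 on the log2 scale in fae1 (adjusted p = 0.000766) and by 5.24 ± 1.08 in PDAT (adjusted p = 0.00037). The change of AT3G50990 in CL37 is not given here.

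**Figure D2:**
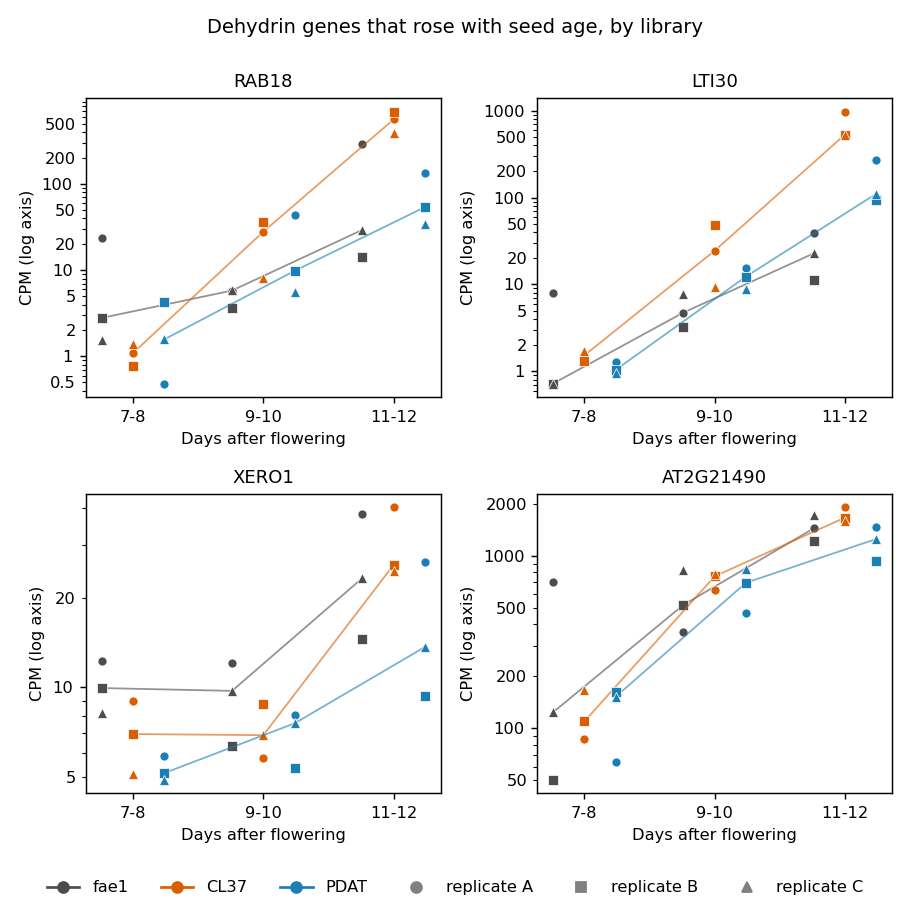
Levels in CPM (vertical axis, log scale) of the 4 dehydrin genes that rose, by days after flowering (horizontal axis), with 1 point per library, colours for lines, shapes for replicates and lines through the medians. The fae1 A library of 7-8 days lies above its replicates, at 699.5 CPM for AT2G21490, and CL37 is the highest line for LTI30 at 11-12 days.

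The genes that fell are mostly the acidic dehydrins of vegetative tissue. COR47, a cold-induced dehydrin, stood at 6.29, 12.4 and 14.5 CPM at 7-8 days and 3.23, 2.90 and 3.31 CPM at 11-12 days in fae1. In CL37 it went from 15.0, 15.85 and 16.5 to 2.10, 1.65 and 3.53 CPM, and in PDAT from 19.7, 19.4 and 24.9 to 2.25, 5.04 and 2.65 CPM. The ages did not overlap in any line. The log2 value fell by 1.81 ± 0.31 in fae1 (adjusted p = 8.64e-05), by 2.69 ± 0.31 in CL37 (adjusted p = 3.10e-07) and by 2.68 ± 0.30 in PDAT (adjusted p = 4.04e-07). AT4G38410, a further dehydrin locus, fell by 2.30 ± 0.35 in fae1 (adjusted p = 3.74e-05), by 3.27 ± 0.38 in CL37 (adjusted p = 2.51e-07) and by 2.85 ± 0.35 in PDAT (adjusted p = 1.30e-06), ending between 1.36 and 4.76 CPM in the 9 libraries of 11-12 days.

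ERD10 and ERD14 are early genes of the response to dehydration whose proteins can act as chaperones. ERD10 went from 40.3 ± 8.76 to 17.3 ± 3.60 CPM in fae1 (SD, n = 3), from 58.1 ± 10.6 to 14.3 ± 2.92 in CL37 and from 71.7 ± 16.0 to 25.7 ± 14.3 in PDAT. At 9-10 days in fae1 it stood at 43.6 ± 12.3 CPM. Its log2 value fell by 1.22 ± 0.31 in fae1 (adjusted p = 0.00273), by 2.02 ± 0.31 in CL37 (adjusted p = 1.08e-05) and by 1.49 ± 0.30 in PDAT (adjusted p = 0.000293). ERD14 went from 139.6 ± 65.1 to 55.0 ± 5.45 CPM in fae1, from 158 ± 29.2 to 98.7 ± 14.4 in CL37 and from 191 ± 26.4 to 85.3 ± 37.8 in PDAT. Its log2 value fell by 1.34 ± 0.29 in fae1 (adjusted p = 0.000905) and by 1.16 ± 0.29 in PDAT (adjusted p = 0.00182). The PDAT value was -0.62 (adjusted p = 0.185) when the share of non-unique alignments was a covariate. In CL37 it fell by 0.68 ± 0.29 (adjusted p = 0.0470), a call lost in 18 of the 27 fits that left out 1 library and under 4 other alternatives. ERD14 in CL37 was at -0.56 (adjusted p = 0.153) without CL37 B of 11-12 days and at -0.21 (adjusted p = 0.633) with that covariate.

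HIRD11, a short histidine-rich dehydrin that binds metal ions, had the smallest absolute log2 change of the 9 in each line. It stood at 24.0, 55.2 and 46.8 CPM at 7-8 days and 27.6, 27.9 and 29.8 CPM at 11-12 days in fae1, with a log2 change of -0.56 ± 0.30 (adjusted p = 0.126), which became -0.84 (adjusted p = 0.0182) without the fae1 A library of 7-8 days. In PDAT it was at 99.9, 86.0 and 77.1 CPM at 7-8 days and at 50.5, 39.4 and 38.3 CPM at 11-12 days, and fell by 1.04 ± 0.30 (adjusted p = 0.00588). The PDAT libraries of 7-8 days had the most non-unique alignments, 16.6% to 19.4% of each file's total against 4.05% in the lowest library, and with that share in the fit the HIRD11 value was -0.33 (adjusted p = 0.555). The part of this share in the result was not tested further.

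**Figure D3:**
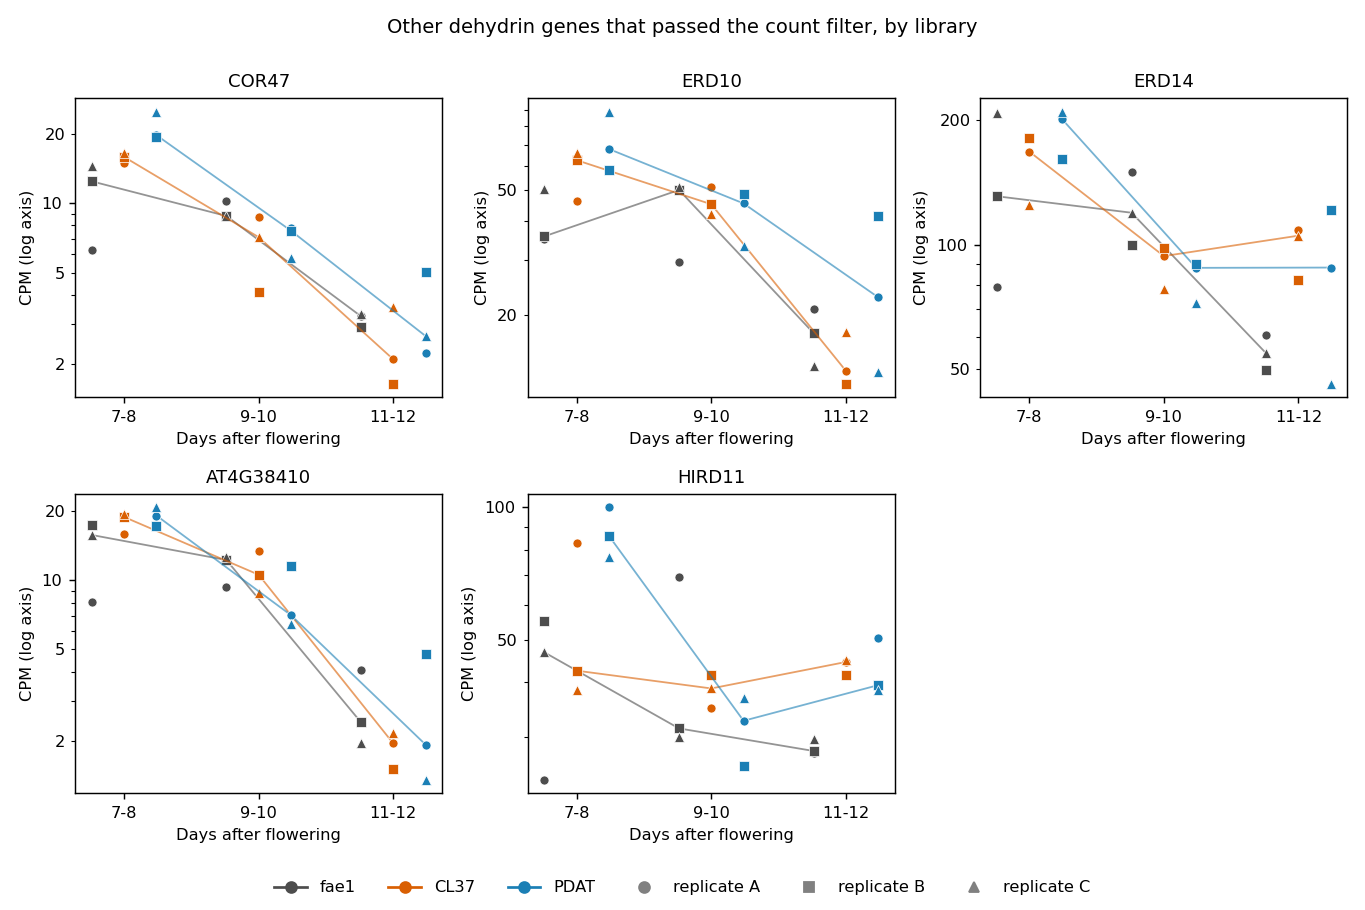
Levels in CPM (vertical axis, log scale) of the 5 other dehydrin genes that passed the count filter, by days after flowering (horizontal axis), with 1 point per library, colours for lines, shapes for replicates and lines through the medians. COR47 and AT4G38410 end below 6 CPM in every line, while HIRD11 stays between 24.0 and 99.9 CPM.

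AT4G39130 had 0 to 19 counts per library and was at 0 in 4 libraries, where 3 counts would be 0.160 to 0.280 CPM. Its highest level was 1.76 CPM, in the fae1 A library of 11-12 days, and it was not tested.

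**Figure D4:**
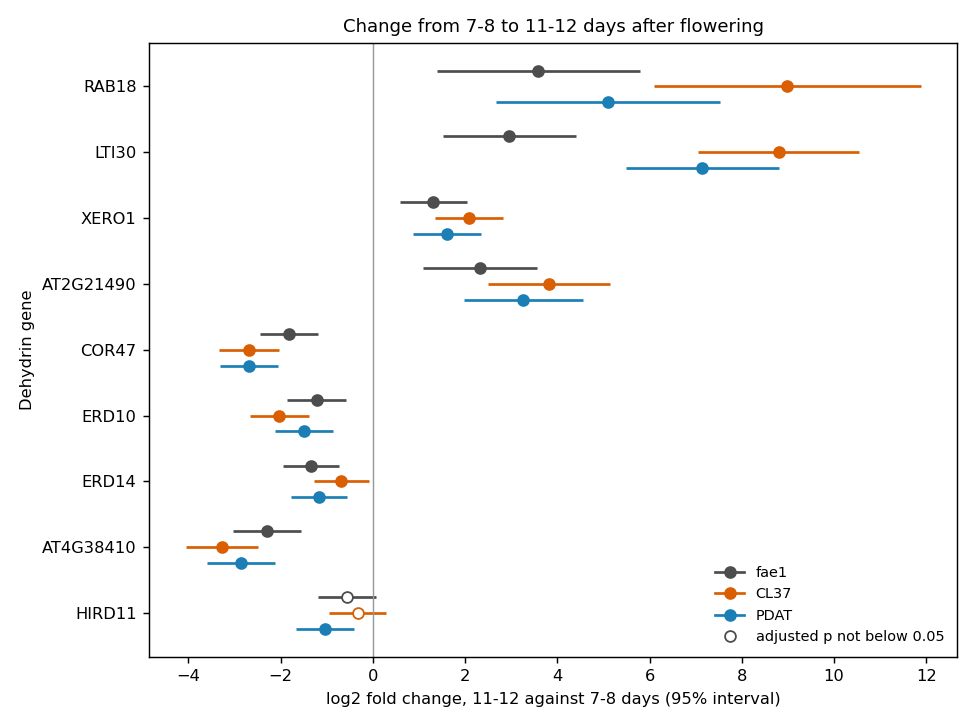
log2 fold change from 7-8 to 11-12 days (horizontal axis) of the 9 tested dehydrin genes in fae1, CL37 and PDAT, with 95% intervals and filled points at adjusted p below 0.05. RAB18 and LTI30 rise by 8.98 and 8.80 in CL37, and COR47, ERD10, ERD14, AT4G38410 and HIRD11 lie below 0.

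The steps between neighbouring stages showed when each member moved. From 7-8 to 9-10 days no dehydrin was called in fae1, where 0 of the 18897 genes tested were called and no dehydrin had an unadjusted p below 0.05; DESeq2 also called 0 dehydrins. Without the fae1 A library of 7-8 days, LTI30 (2.83, adjusted p = 0.0391) and AT2G21490 (2.70, adjusted p = 0.000255) rose in this step. In CL37 3 dehydrins rose and 2 fell (background 25.8% of genes called), and in PDAT 3 rose and 4 fell (32.5%). RAB18, LTI30 and AT2G21490 were the 3 that rose in both lines, with log2 values of 4.48, 4.14 and 2.58 in CL37 and 3.22, 3.45 and 2.40 in PDAT. In CL37 the count of 5 became 3 without the A or the B library of 7-8 days: RAB18 then had adjusted p = 0.0542 and 0.0550 and ERD14 0.112 and 0.134. The ERD14 call (-0.81, adjusted p = 0.0430) was lost in 7 of the 27 fits that left out 1 library and under 4 other alternatives. In PDAT the RAB18 call (adjusted p = 0.0315) was lost without PDAT A or C of 7-8 days and without PDAT A of 9-10 days (1.81, adjusted p = 0.256). All 7 PDAT calls of this step were lost when the fit took the share of non-unique alignments as covariate, LTI30 for example at 1.86 (adjusted p = 0.310).

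From 9-10 to 11-12 days, 7 dehydrins were called in fae1, 3 of them upward (33.1% of all genes called). The fae1 count became 5 without the fae1 A library of 11-12 days. RAB18 then went from 4.45 (adjusted p = 0.00543) to 2.09 (adjusted p = 0.113). In CL37 there were 6, 3 of them upward (31.2%), and in PDAT 4, 2 of them upward (23.8%), which became 2 in all without the PDAT A library of 11-12 days. XERO1 rose in this late step in each line, by 1.42 ± 0.35 in fae1 (adjusted p = 0.00435), 2.11 ± 0.38 in CL37 (adjusted p = 0.000223) and 1.20 ± 0.35 in PDAT (adjusted p = 0.0161, but 0.192 without the PDAT A library of 11-12 days). LTI30 rose by 2.22 ± 0.65 in fae1 (adjusted p = 0.0140), 4.65 ± 0.68 in CL37 (adjusted p = 3.48e-05) and 3.69 ± 0.65 in PDAT (adjusted p = 0.000419). The fae1 value of LTI30 lost its call without fae1 A or B of 9-10 days or fae1 A of 11-12 days, with adjusted p up to 0.0798. With the share of non-unique alignments as covariate, the fae1 count of this step was 3 in place of 7, LTI30 being at 1.23 (adjusted p = 0.242) and XERO1 at 1.18 (adjusted p = 0.0811). COR47 and AT4G38410 fell in this step in each line, COR47 by 1.56, 1.51 and 1.09 and AT4G38410 by 2.03, 2.58 and 1.63 on the log2 scale in fae1, CL37 and PDAT. The COR47 call in PDAT was lost without PDAT A of 9-10 days (adjusted p = 0.0543) and without PDAT A or C of 11-12 days (adjusted p = 0.0825 and 0.0713).

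Between lines at 11-12 days, 1 of the 9 dehydrins tested differed between CL37 and fae1 (15.6% of all genes called), 1 between PDAT and fae1 (6.61%) and 0 between PDAT and CL37 (2.65%). The called gene was LTI30 in each case. It stood at 11.3 to 39.2 CPM in fae1, 94.5 to 269 in PDAT and 529.6 to 975 in CL37. LTI30 was higher in CL37 than in fae1 by 4.80 ± 0.67 on the log2 scale (adjusted p = 2.09e-05), and the difference was 4.90 (adjusted p = 0.000625) without the C libraries of both lines and 4.45 to 5.31 over the fits that left out 1 library. It was higher in PDAT than in fae1 by 2.70 ± 0.62 (adjusted p = 0.0101), but adjusted p was 0.0844 without the PDAT A library, 0.0615 without fae1 B and 0.0544 without fae1 C of 11-12 days. PDAT against CL37 gave -2.10 ± 0.60 (adjusted p = 0.0663), with a 95% interval of -3.34 to -0.87, so the level in PDAT lay between those of the other lines without passing the test against CL37. This last difference was called without the PDAT A library of 11-12 days (-2.72, adjusted p = 0.0342) and without the fae1 A library of 7-8 days (-2.10, adjusted p = 0.0113).

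No line difference of RAB18 at 11-12 days passed the test. CL37 was above fae1 by 2.28 ± 0.97 (adjusted p = 0.117), the 3 CL37 libraries lying above the 3 of fae1. Without the fae1 A library of 11-12 days the difference was 4.64 (adjusted p = 0.00588). PDAT against CL37 gave -2.89 ± 0.997 (adjusted p = 0.181), again without overlap, and PDAT against fae1 gave -0.60 ± 0.94 (adjusted p = 0.721), with overlap. For PDAT against CL37, 4 of the 9 genes had an unadjusted p below 0.05, namely RAB18, LTI30, XERO1 at -0.87 ± 0.34 (adjusted p = 0.263) and ERD10 at 0.84 ± 0.31 (adjusted p = 0.227), and DESeq2 called 0 dehydrins. The share of all genes at an unadjusted p below 0.05 is not given here, so this count has no background and is not read as a result about the family.

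None of the other members was called between lines at this age. ERD14 stood at 60.6, 49.7 and 54.7 CPM in fae1 and at 108.6, 82.1 and 105 CPM in CL37, without overlap, a difference of 0.84 ± 0.29 (adjusted p = 0.0511). DESeq2 called this difference (adjusted p = 0.0367), as it did LTI30. HIRD11 stood at 27.6, 27.9 and 29.8 CPM in fae1 and at 44.5, 41.45 and 44.9 CPM in CL37, also without overlap, a difference of 0.62 ± 0.30 (adjusted p = 0.176, and 0.0320 without the fae1 A libraries of the earlier stages). XERO1 in PDAT against CL37 was called without PDAT A of 11-12 days (-1.37, adjusted p = 0.0305). For AT2G21490 the 95% interval of CL37 against fae1 ran from -0.94 to 1.41 and for XERO1 from -0.44 to 0.93 on the log2 scale, so smaller differences could not be detected. COR47, ERD10 and AT4G38410 gave -0.36, -0.28 and -0.58 in CL37 against fae1, with adjusted p = 0.498, 0.583 and 0.361.

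**Figure D5:**
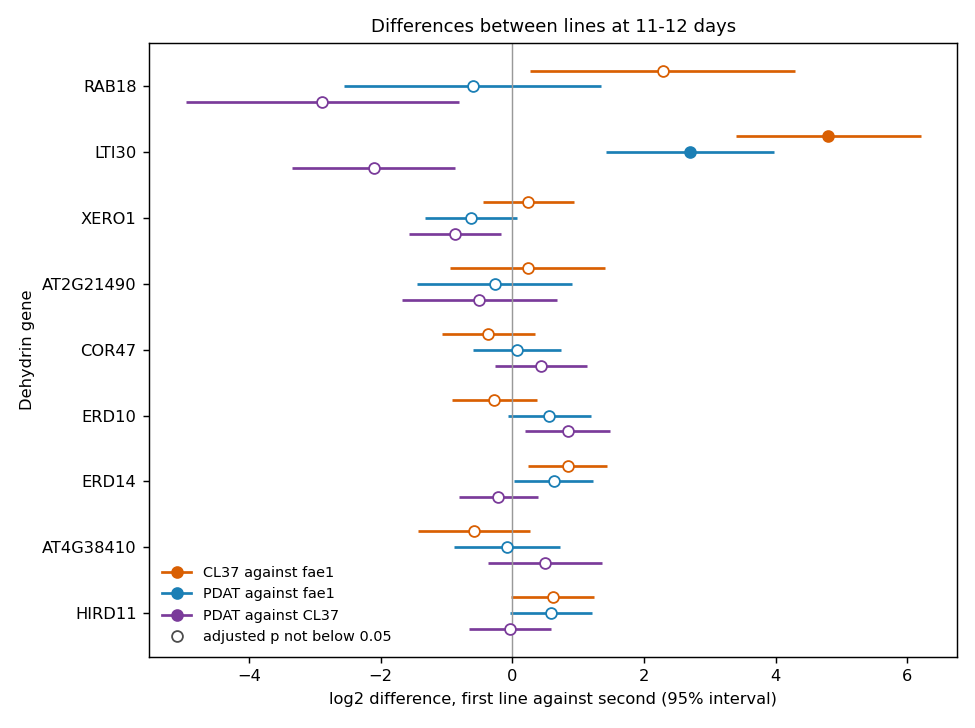
log2 differences between lines at 11-12 days (horizontal axis) of the 9 tested dehydrin genes, with 95% intervals and filled points at adjusted p below 0.05. Only LTI30 has filled points, at 4.80 for CL37 against fae1 and 2.70 for PDAT against fae1, and RAB18 and LTI30 have the widest differences for PDAT against CL37.

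The change with age was also compared between lines. Of the 9 dehydrins, 2 rose more from 7-8 to 11-12 days in CL37 than in fae1 (6.56% of all genes called in either direction), 1 more in PDAT than in fae1 (7.64%) and 0 differed between PDAT and CL37 (0.704%; DESeq2 called 0, and 1 had an unadjusted p below 0.05). The excess for LTI30 was 5.84 ± 1.02 in CL37 (adjusted p = 0.000908) and 4.19 ± 1.01 in PDAT (adjusted p = 0.0203). Without the fae1 A library of 7-8 days these were 3.74 (adjusted p = 0.0815) and 2.09 (adjusted p = 0.271). The excess for RAB18 in CL37 was 5.39 ± 1.60 (adjusted p = 0.0453), and 3.29 (adjusted p = 0.255) without that library. This RAB18 call was lost in 17 of the 27 fits that left out 1 library and under 4 other alternatives, among them no filter (adjusted p = 0.103). Both comparisons share the fae1 libraries.

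At 7-8 days, 0 dehydrins differed between CL37 and fae1 (0.0265% of all genes called) and 0 between PDAT and CL37 (0.0106%), with 2 and 1 at an unadjusted p below 0.05. DESeq2 also called 0 in both. Between PDAT and fae1 at 7-8 days 2 were higher in PDAT (8.64% of all genes called), COR47 by 0.94 ± 0.27 (adjusted p = 0.0357) and HIRD11 by 1.06 ± 0.30 (adjusted p = 0.0331). Both calls were lost without the fae1 A library (0.66 and 0.78, adjusted p = 0.0661 and 0.0672) and when the fit took the share of non-unique alignments as covariate (0.35 and 0.46). At 9-10 days no dehydrin was called between any pair of lines, where 0.741% of genes were called for CL37 against fae1, 0.0212% for PDAT against CL37 and 0.09% for PDAT against fae1; DESeq2 called 0 as well, and 2, 0 and 0 dehydrins had an unadjusted p below 0.05. LTI30 was already higher in each CL37 library than in each fae1 library at 9-10 days, by 2.36 ± 0.66 (adjusted p = 0.126). Over the mean of stages LTI30 was higher in CL37 than in fae1 by 2.04 ± 0.41 (adjusted p = 0.00235; 7.08% of genes called) and by 2.74 without the fae1 A library of 7-8 days, and no dehydrin was called for PDAT against CL37 (0.815%) or against fae1 (5.86%) by edgeR's quasi-likelihood test. There 1 and 3 dehydrins had an unadjusted p below 0.05, and DESeq2 called 0 and 1.

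The other cold and drought genes gave the setting of these differences, from lists that were written with earlier results known. Of 17 tested cold and dehydration response genes, 7 were higher and 0 lower in CL37 than in fae1 at 11-12 days, where 15.6% of all genes were called, with a median of 1.18 against -0.02 over all genes. Among them were LTI78 (5.70 ± 0.36, adjusted p = 3.14e-10), known as RD29A and a standard reporter of DRE activity, LTI65 (1.72 ± 0.52) or RD29B, a reporter of abscisic acid, and ERD7 (1.84 ± 0.21). Of the same 17, 6 were lower in PDAT than in CL37 (2.65% of all genes called; median -0.44; 3 without the CL37 A library of 11-12 days) and 5 higher in PDAT than in fae1 (6.61% of all genes called; median 0.71; 3 without the fae1 C library). LTI78 stood at 6.74, 2.17 and 3.31 CPM in fae1, at 283, 199 and 149 in CL37, and at 86.1, 66.5 and 67.3 in PDAT, the same order of lines as LTI30.

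Of 7 tested regulators of the cold and dehydration response, 3 were higher and 1 lower in CL37 than in fae1 at 11-12 days, beside the 15.6% of all genes called. DREB2A, a factor that binds the DRE element, stood at 1.02, 0.965 and 1.20 CPM in fae1, at 69.0, 62.2 and 38.8 in CL37, and at 10.6, 8.06 and 6.17 in PDAT. CL37 was above fae1 by 5.72 ± 0.41 (adjusted p = 1.35e-09) and PDAT below CL37 by a log2 difference of -2.78 ± 0.33 (adjusted p = 1.65e-05). DREB2B was higher in CL37 by 2.25 ± 0.21, and DREB1A, a cold-induced factor of the CBF group, was at 0 in all 9 libraries of 11-12 days. Of 17 maturation and abscisic acid regulators, 1 was higher in CL37 than in fae1 at 11-12 days, a smaller share than the 15.6% of all genes: ABI5 by 1.51 ± 0.40 (adjusted p = 0.0106), a bZIP factor of the abscisic acid response in seeds; 0 were called without the fae1 C library.

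The LEA genes outside the family moved one way with age. Of 20 tested, 16 rose in fae1, 20 in CL37 and 20 in PDAT between 7-8 and 11-12 days, with medians of 2.10, 5.41 and 3.88, and none fell, where 50.5%, 58.1% and 53.9% of all genes were called in either direction; 9 were called in fae1 without its B library of 7-8 days. EM1 and GEA6 (EM6), classic markers of late seed maturation, rose in CL37 by 8.62 ± 1.58 and 9.15 ± 1.81. At 11-12 days 6 of the 20 were higher in CL37 than in fae1 (15.6% of all genes called; median 1.27) with 4 to 10 over the fits that left out 1 library and 4 without fae1 B of 11-12 days, and 1 was lower in PDAT than in CL37.

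Markers of the tissues in the seed are given beside these results, whose part in them was not tested. From 7-8 to 11-12 days the 8 storage and oil body markers rose in CL37 and PDAT and 7 of 8 in fae1, while 7 of 9 seed coat markers fell in each line. Of all genes, 50.5% were called in fae1, 58.1% in CL37 and 53.9% in PDAT in either direction. Of 6 endosperm markers 4 fell and 1 rose in fae1, 5 fell and 1 rose in CL37, and 5 fell in PDAT, with medians of -2.79, -4.61 and -3.23. The sum over all 10 listed endosperm markers went the other way and was not tested. Its mean went from 1519 ± 969 to 3180 ± 858 CPM in fae1 (SD, n = 3). In CL37 it went from 1250 ± 632 to 2697 ± 662 CPM and in PDAT from 1539 ± 165 to 2943 ± 568. Between lines at 11-12 days 0 of 8 storage markers, 0 of 9 seed coat markers and 0 of 6 endosperm markers were called in any pair, by edgeR's quasi-likelihood test. Of all genes, 15.6% were called for CL37 against fae1, 6.61% for PDAT against fae1 and 2.65% for PDAT against CL37. Lists this short could hold 0 calls at those shares. The summed storage markers ran from 411420 to 581650 CPM in fae1 at 11-12 days, above the 299900 to 309450 of PDAT without overlap, and from 245450 to 428120 in CL37. The summed seed coat markers overlapped between lines (175 to 251 CPM in fae1, 167 to 206 in CL37 and 199 to 351 in PDAT). The medians of the endosperm markers at that age were 1.64 for PDAT against CL37, 1.21 for PDAT against fae1 and -0.35 for CL37 against fae1. Silique wall markers summed to 91.1 to 126 CPM at that age in all lines, with 1 of 6, YAB3, lower in CL37 than in fae1 by a log2 difference of -0.46 (adjusted p = 0.0492).

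The genes whose pattern over the 9 groups was nearest to each member were found among 14034 tested genes by the root mean square difference of centred log2 levels. For AT2G21490 these were NADP-ME1 (0.11), STP4 (0.11) and RTNLB13 (0.12). For RAB18 they were AT1G32710 (0.46), AT2G42560 (0.51) and AT2G23110 (0.57), and for LTI30 AT1G16850 (0.47), AT2G36770 (0.59) and AT5G45630 (0.59). The nearest genes to COR47, ERD10 and ERD14 were SUVH4 (0.14), AT4G33600 (0.14) and PTP1 (0.14), those to AT4G38410 and HIRD11 were CYCA1;1 (0.15) and AT5G58200 (0.12), and that to XERO1 was COX17 (0.26). Within the family RAB18 and LTI30 were 0.76 apart, COR47 and AT4G38410 0.34, COR47 and ERD10 0.39, and ERD14 and HIRD11 0.28, whereas the neighbours LTI30 and XERO1 were 2.32 apart.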

How the data were processed

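Polyadenylated RNA of developing seeds was sequenced for 27 libraries, 3 lines by 3 stages with 3 replicates each. Whole-number read counts per gene, 1 file per library, were deposited by the authors. A table of FPKM values, 1 pooled column per group, was also deposited by the authors and is used only where named. Per the submitters' processing notes reads were handled with TopHat2 2.0.3, Cufflinks 2.0.1 and HTSeq 0.5.4p3, besides Trimmomatic 0.22 and bcl2fastq 1.8.2, on build TAIR10; their settings, including strand use, are not given in the sources used here, so reads of overlapping genes on opposite strands cannot be told apart.

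The 5 summary lines of each file (4.68% to 20.5% of its total) were left out. Counts were TMM-scaled and fitted over all 9 groups with edgeR 4.0.16 (robust quasi-likelihood, filterByExpr) in R 4.3.3, with Benjamini-Hochberg adjustment over 18897 genes and calls at adjusted p below 0.05. Log2 CPM used a prior count of 2. The scripts were tested on simulated data. Alternatives were other scalings, no filter, a replicate block, a covariate, leaving out libraries and DESeq2 1.42.0. The replicates are biological per the labels' protocols, each from pooled seeds of many plants. The main fit did not pair libraries by replicate letter. The floor of 3 counts covers counting error only. Counts of dehydrins at an unadjusted p below 0.05 are given without a share of all genes. All 10 members are named, with up to 4 called genes of the largest absolute log2 change per other list and comparison (average log2 CPM of at least 1; the 2 most abundant if none is called), and the 3 nearest genes outside the family by pattern among those with average log2 CPM of at least 2. The members and gene lists were chosen with earlier results of these data known.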

Additional observations from a re-analysis of the deposited data

Results flagged for a closer look

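A difference between lines in the change from 7-8 to 11-12 days, tested as an interaction in edgeR's quasi-likelihood fit, drew attention to 3 results. RAB18 rose more in CL37 than in fae1 by 5.39 ± 1.60 on the log2 scale (SE, adjusted p = 0.0453), against 3.29 (adjusted p = 0.255) without the fae1 A library of 7-8 days and 7.75 (adjusted p = 0.00283) without the fae1 A library of 11-12 days; the call was lost in 17 of the 27 fits that left out 1 library. LTI30 rose more in CL37 than in fae1 by 5.84 ± 1.02 (adjusted p = 0.000908), by 3.74 (adjusted p = 0.0815) without the fae1 A library of 7-8 days, and by 5.94 (adjusted p = 0.0039) without the C libraries of both lines at 11-12 days. LTI30 rose more in PDAT than in fae1 by 4.19 ± 1.01 (adjusted p = 0.0203), by 2.09 (adjusted p = 0.271) without the fae1 A library of 7-8 days, and by 3.57 (adjusted p = 0.0659) without the PDAT A library of 11-12 days.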

How the results depend on the processing

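Of 216 combinations of a dehydrin gene and a comparison, 62 were called. Over 35 alternatives 2065 of the 2170 values for these stayed called in the same direction and 105 lost the call. Of the 62, 36 kept the call under every alternative, and of the 154 not called, 24 were called by some alternative. The number of dehydrins called from 7-8 to 11-12 days was 8 in fae1 (7 to 9 over the fits that left out 1 library), 8 in CL37 (7 to 8) and 9 in PDAT (9 in each). With the share of non-unique alignments as covariate the PDAT count was 6, XERO1, ERD14 and HIRD11 losing their calls, and the CL37 count 7. At 11-12 days, CL37 against fae1 gave 1 (1 to 2), and 2 with the replicate block, 3 without library A of fae1 at both earlier stages and 2 by DESeq2. PDAT against CL37 gave 0 (0 to 2), 2 with the replicate block and 1 without the earlier fae1 A libraries. PDAT against fae1 gave 1 (0 to 1), and 0 when the 11-12 day C libraries of CL37 and fae1 were left out. The cause of these changes was not tested. HIRD11 from 7-8 to 9-10 days in fae1 went from 0.06 to -0.73 (adjusted p = 0.0324) without library A of fae1 at both earlier stages.

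Replicate letters were checked over 108 pairs of libraries with the same letter, whose deviations correlated from -0.543 to 0.537. The median was 0.0328, against -0.0261 for other letters, and 34 same-letter pairs correlated over 0.1. Of the 27 libraries, 18 were closest on average to their own letter. Whether the letters pair the libraries was not tested, and the main fit did not use them. With the replicate block RAB18 in CL37 against fae1 at 11-12 days was 3.01 (adjusted p = 0.0153), and PDAT against CL37 was -3.21 for RAB18 (adjusted p = 0.0326) and -2.17 for LTI30 (adjusted p = 0.0213). The median change of all genes in CL37 from 7-8 to 11-12 days was -0.14 with upper-quartile scaling and 0.01 with TMM. The lowest library held 4126510 gene counts, and AT4G39130 was too low to test.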
